A study of Nicotiana tabacum with 60 samples.

Results

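The transplastomic tobacco knockout Δ*atpB*/*E* was compared with its control line pRB8c by ribosome profiling (Ribo-seq) and RNA-seq of leaves, with 3 samples of each line in each assay and thus 12 of the 60 samples of the study. All chloroplast protein-coding genes with at least 10 counts in at least 3 of the 6 libraries of an assay were taken, which gave 77 of 78 genes, and only *matK* fell below that limit. In Δ*atpB*/*E* an *aadA* resistance cassette stands in place of a stretch that covers most of *atpB* and the beginning of *atpE*, while pRB8c is the *aadA*-containing control line, so both lines share the marker and the cultivar Petit Havana. Δ*atpB*/*E* plants were white, and both lines were grown on sterile medium with sucrose and harvested as young plants. The sample labels give the genotype of the mutant as a deletion of *atpB*, and the methods describe the 3 samples of a line as biological replicates. The comparison asks whether loss of *atpB* and *atpE* expression changes the synthesis of the other ATP synthase subunits encoded in the chloroplast.

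The chloroplast ATP synthase uses the proton gradient across the thylakoid membrane to make ATP. Its membrane part holds the c-ring (AtpH), the stator subunit AtpF and subunit a (AtpI), and its soluble head holds alternating α (AtpA) and β (AtpB) subunits on a central stalk of the nucleus-encoded γ subunit and ε (AtpE). In algae, synthesis of some chloroplast-encoded subunits of a complex depends on the presence of their assembly partners, a form of control known as CES (control by epistasy of synthesis), and the α and β subunits of the ATP synthase of Chlamydomonas are a known example.

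Ribo-seq counts ribosome footprints on a reading frame and is used here as a measure of translation output, RNA-seq measures RNA accumulation, and the change of footprints over the change of RNA is called translation efficiency. Footprints in chloroplast reading frames numbered 107032 to 138170 in the Δ*atpB*/*E* libraries, against 1334157 to 2204303 in the pRB8c libraries. RNA-seq reads there numbered 6918156 to 10393266 in Δ*atpB*/*E* and 9687266 to 11255677 in pRB8c. Of the reads mapped to any genome, chloroplast reads made up 3.86% ± 0.895 of footprints in Δ*atpB*/*E* and 24.2% ± 2.85 in pRB8c, and 39.3% ± 2.42 of RNA in Δ*atpB*/*E* and 59.8% ± 1.46 in pRB8c (SD, n = 3 each). The groups did not overlap in either assay, and the exact two-sided permutation test gave p = 0.1, the smallest value that 3 against 3 samples allow. In such bulk leaf samples, fewer cells with developed chloroplasts and less chloroplast RNA per cell cannot be told apart. Of the chloroplast reads, 39.5% ± 5.68 of footprints lay in reading frames in Δ*atpB*/*E* and 85.9% ± 6.02 in pRB8c, and the part of this difference in the gene results was not tested. All changes given below are therefore relative to the other chloroplast genes (TMM scaling within an assay). Values per library are CPM, which is reads scaled by the library's total in chloroplast reading frames after its TMM adjustment. CPM values thus differ from the shares of these reads that are given in percent. A gene counts as higher or lower at an adjusted p of 0.01 or less (edgeR quasi-likelihood test, Benjamini-Hochberg adjustment over 77 genes).

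The disrupted genes were examined first. The counting window of *atpB* lies at positions 55296 to 56752 of the minus strand of the chloroplast genome, as numbered in the deposited table, and that of *atpE* at 54898 to 55259 of the same strand. Footprints of *atpB* were at 108, 85.6 and 1418 CPM in the Δ*atpB*/*E* libraries, against 23978, 26951 and 22870 in the pRB8c libraries. The groups did not overlap, and the library of Δ*atpB*/*E* replicate 3 stood above the other two with 245 raw counts, against 19 and 12. The log2 fold change was −5.50 (SE 0.95, adjusted p = 5.22e-04), a 45.4-fold decrease, and −8.31 without that library. RNA of *atpB* was at 362, 413 and 338 CPM in Δ*atpB*/*E* and at 14626, 15786 and 15787 in pRB8c. No Δ*atpB*/*E* library of RNA stood apart here, and the decrease was 41.5-fold (log2 −5.37, SE 0.20, adjusted p = 2.98e-08). The start of *atpB* and the end of *atpE* lie outside the replaced stretch.

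The 2 readouts of *atpE*, which codes for the ε subunit and follows *atpB* on the same transcript, differed from each other. Footprints were at 461, 478 and 660 CPM in Δ*atpB*/*E* and at 1493, 1745 and 1767 in pRB8c. All 3 Δ*atpB*/*E* values were below all 3 pRB8c values, a 3.13-fold decrease (log2 −1.64, SE 0.21, adjusted p = 7.63e-05). RNA of *atpE* was at 4006, 6664 and 6253 CPM in Δ*atpB*/*E* and at 4844, 5729 and 5138 in pRB8c. The groups overlapped, and no change of RNA was called (log2 0.11, SE 0.21, adjusted p = 0.647). The replaced stretch reaches into the counting window of *atpE*, so in the mutant the reads of both readouts can come only from the part that remains. The values were not corrected for this, so the footprint decrease is in part set by the deletion. Even counts of RNA do not mean an even level on the remaining part. Translation efficiency of *atpE* was lower (log2 −1.75, SE 0.30, adjusted p = 1.52e-04), a value that in the mutant refers to a reading frame without its start. The efficiency of *atpB* was not called with all libraries (log2 −0.13, SE 0.83) but was lower without the footprint library of Δ*atpB*/*E* replicate 3 (log2 −2.94, adjusted p = 2.59e-06).

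**Figure D1:**
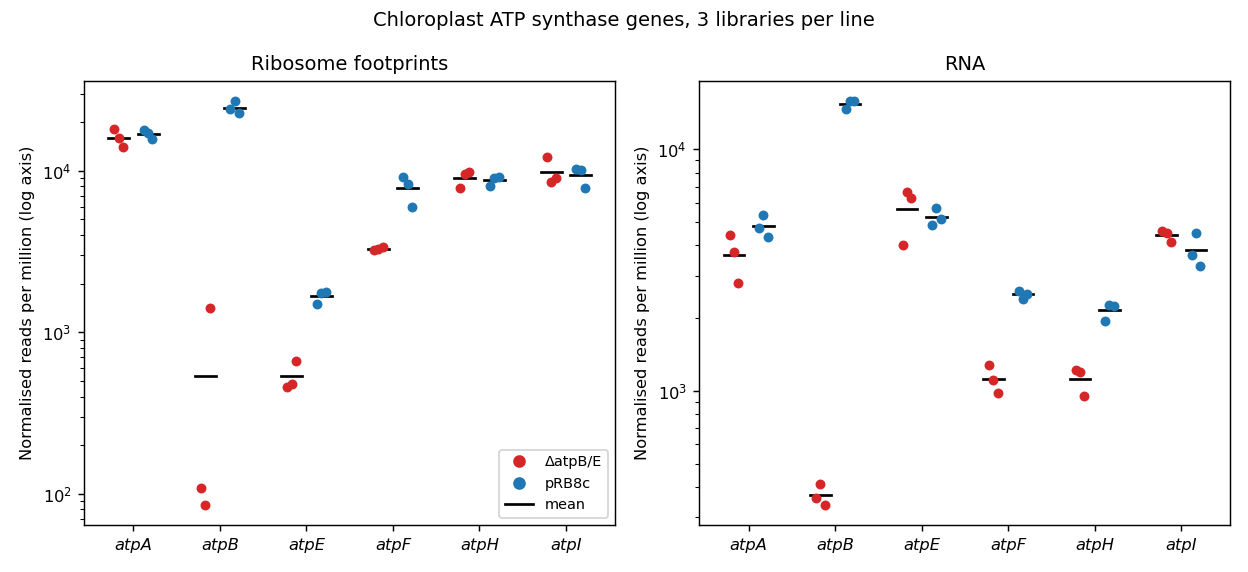
Normalised counts (CPM, log axis) of the 6 ATP synthase genes in each library, for footprints and for RNA. Δ*atpB*/*E* libraries stand left of pRB8c libraries, points are libraries and bars are means of 3. The Δ*atpB*/*E* points of *atpB* lie at 85.6 to 1418 for footprints against 22870 to 26951 in pRB8c. Counts of *atpE*, whose counting window is partly deleted in the mutant, are lower only in footprints. *atpF* is lower in both readouts, and the groups of *atpH* separate in RNA but not in footprints.

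Of the 4 intact ATP synthase genes, which lie together in the transcription unit *rps2*-*atpI*-*atpH*-*atpF*-*atpA*, only *atpF* had fewer footprints in Δ*atpB*/*E*, and none had more. The genome-wide background is high: 23.4% of the 77 genes tested had fewer footprints and 44.2% had more, so 1 of 4 lower is close to the share over all genes. The median log2 change of the 4 genes was −0.01, against 0.36 over all genes.

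For *atpF*, footprints were at 3233, 3261 and 3351 CPM in Δ*atpB*/*E*, against 9144, 8282 and 5986 in pRB8c. The 3 Δ*atpB*/*E* values were close to each other and below every pRB8c value. The decrease was 2.38-fold (log2 −1.25, SE 0.21, adjusted p = 4.44e-04). RNA of *atpF* was also lower, at 1281, 1104 and 981 CPM in Δ*atpB*/*E* and 2596, 2401 and 2521 in pRB8c (log2 −1.16, SE 0.16, adjusted p = 9.56e-05). The changes in both readouts were alike in size, and translation efficiency was not called as changed (log2 −0.09, SE 0.26, adjusted p = 0.794). Against RB70, the other *aadA* control line of the study, *atpF* was also lower in footprints (log2 −0.82) but by far more in RNA (log2 −4.11), so that efficiency was higher (log2 3.29).

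For *atpA*, the gene of the α subunit that alternates with β in the head, footprints were at 18058, 15946 and 13947 CPM in Δ*atpB*/*E* and at 17920, 17194 and 15619 in pRB8c. The groups overlapped, and the log2 fold change was −0.08 (SE 0.17, adjusted p = 0.698). RNA of *atpA* was at 4396, 3744 and 2805 CPM in Δ*atpB*/*E* and at 4738, 5315 and 4339 in pRB8c (log2 −0.39, SE 0.20, adjusted p = 0.0915), and efficiency was at log2 0.31 (SE 0.28, adjusted p = 0.356). No difference of *atpA* was thus called in any readout.

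Footprints of *atpH*, the c-ring gene, were at 7860, 9525 and 9867 CPM in Δ*atpB*/*E* and at 8021, 9064 and 9137 in pRB8c. The groups overlapped fully (log2 0.06, SE 0.18, adjusted p = 0.809). Its RNA was lower, at 1215, 1202 and 953 CPM in Δ*atpB*/*E* and 1948, 2270 and 2241 in pRB8c (log2 −0.94, SE 0.16, adjusted p = 3.72e-04). Efficiency was called higher with all libraries (log2 0.99, SE 0.25, adjusted p = 0.00325), but the call was lost when any 1 of the 3 Δ*atpB*/*E* footprint libraries or pRB8c RNA replicate 2 or 3 was left out, with an adjusted p of up to 0.0577. Footprints of *atpI* were at 12099, 8576 and 9010 CPM in Δ*atpB*/*E* and at 10244, 10149 and 7781 in pRB8c. No difference of *atpI* was called in footprints (log2 0.08, SE 0.21) or RNA (log2 0.21, SE 0.17), and the groups overlapped in both.

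Across the 77 genes, footprints were higher in Δ*atpB*/*E* for 34 genes and lower for 18. At least 4-fold, 14 genes were higher (18.2%) and 3 lower (3.90%), which were *atpB*, *ndhD* and *psbE*. RNA was higher for 32 genes (41.6%) and lower for 26 (33.8%), and at least 4-fold so for 6 (7.79%) and 4 (5.19%). The median log2 change was 0.36 for footprints and 0.15 for RNA. These splits depend on the scaling: library sizes alone gave 47 genes higher and 7 lower in footprints and 46 and 8 in RNA, and DESeq2 size factors gave 30 and 25 in footprints and 28 and 28 in RNA. With RPKM per read mapped to all genomes (limma on log2(RPKM + 1)), which carries the smaller chloroplast share of Δ*atpB*/*E*, the footprint split turned to 1 higher and 65 lower (median log2 −2.61), while RNA had 33 higher and 23 lower. Of the 77 genes genes, 26 were higher in both readouts and 13 lower in both. In 3 genes (*rps14*, *psbH* and *petB*) footprints were higher while RNA was lower, and no gene had the opposite combination. Log2 changes of footprints and RNA had a Pearson correlation of 0.76 and a Spearman correlation of 0.69 across the 77 genes, which are not independent replicates and share libraries within an assay.

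**Figure D2:**
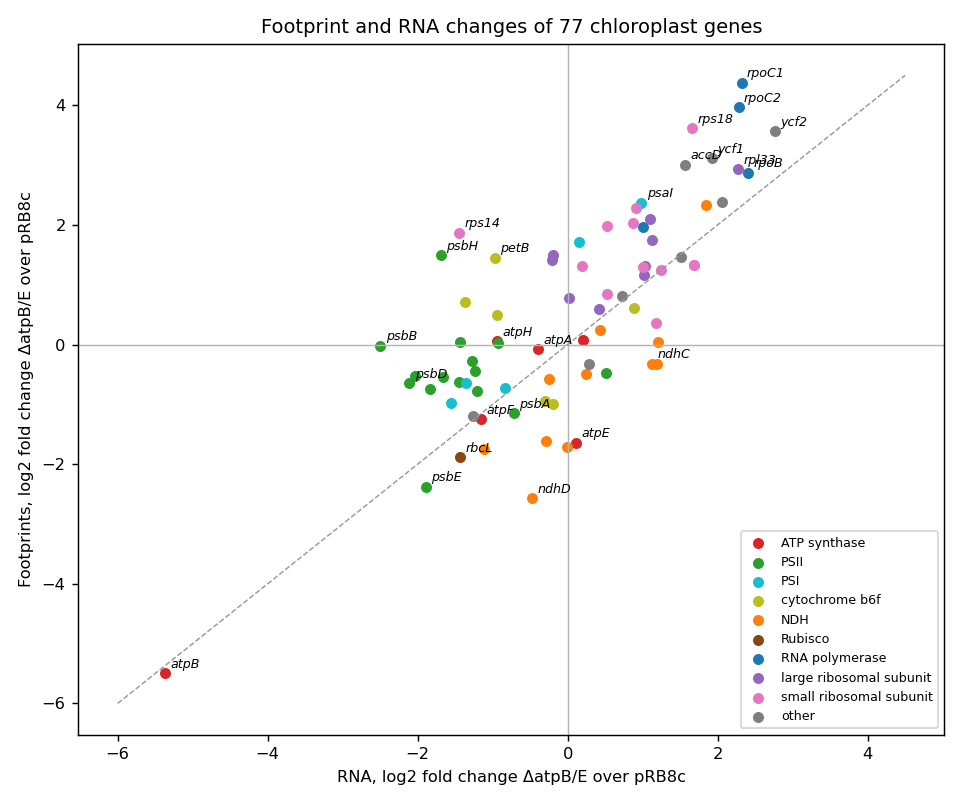
Log2 fold change of Δ*atpB*/*E* over pRB8c in RNA (x axis) and footprints (y axis) for 77 chloroplast genes, coloured by gene list; the dashed line marks equal change. RNA polymerase genes lie at the upper right, *atpB* at the lower left, and *rps14*, *psbH* and *petB* lie at the upper left, with higher footprints and lower RNA.

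Genes for the chloroplast gene expression machinery had more footprints and more RNA in Δ*atpB*/*E*, a pattern found in part in other mutants of the study (below). Of 25 such genes, footprints were higher for 23 (44.2% over all genes) and lower for none (23.4%), with a median log2 change of 1.49 against 0.36 over all genes. RNA was higher for 20 (41.6% over all genes) and lower for 1, *rps14* (33.8%), with a median of 1.02 against 0.15 over all genes. Together they took 10.9% ± 0.615 of footprints in chloroplast reading frames in Δ*atpB*/*E* and 1.69% ± 0.145 in pRB8c (SD, n = 3 each), and 6.99% ± 2.60 of RNA reads there in Δ*atpB*/*E* and 1.87% ± 0.145 in pRB8c.

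The 4 genes of the plastid-encoded RNA polymerase, the bacterial-type enzyme that transcribes mainly photosynthesis genes, were all higher in both readouts. The largest footprint increase of any gene was that of *rpoC1* (subunit β′), with 3671, 3410 and 3038 CPM in Δ*atpB*/*E*, against 224, 150 and 112 in pRB8c. The groups were far apart, a 20.8-fold increase (log2 4.38, SE 0.29, adjusted p = 1.94e-06). RNA of *rpoC1* was at 4893, 3563 and 2631 CPM in Δ*atpB*/*E* and 736, 733 and 746 in pRB8c, a smaller increase (log2 2.32, SE 0.23), and efficiency was higher (log2 2.06, SE 0.35, adjusted p = 1.45e-04). Against RB70 the footprint increase of *rpoC1* was similar (log2 4.29), but its RNA was lower in Δ*atpB*/*E* (log2 −1.32).

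The neighbours of *rpoC1* on the same transcript had RNA changes close to its own and smaller footprint changes. Footprints of *rpoC2* (subunit β″) were at 10227, 8062 and 3652 CPM in Δ*atpB*/*E*, with replicate 3 well below the other two, against 659, 390 and 350 in pRB8c (log2 3.97, SE 0.42, adjusted p = 2.52e-05). Footprints of *rpoB* (subunit β) were at 3113, 3203 and 3652 CPM in Δ*atpB*/*E* and at 465, 371 and 525 in pRB8c (log2 2.87, SE 0.21, adjusted p = 2.49e-06). RNA changed by log2 2.28 for *rpoC2* and 2.41 for *rpoB*. The polymerase genes together took 2.31% ± 0.623 of footprints in chloroplast reading frames in Δ*atpB*/*E*, against 0.151% ± 0.0373 in pRB8c, a ratio of 15.3.

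Ribosomal protein genes were higher in 8 of 9 genes of the large subunit (median log2 1.41) and 11 of 12 of the small subunit (median 1.33) in footprints, against 44.2% over all genes. In RNA, 6 of 9 and 10 of 12 were higher, against 41.6% over all genes. The largest footprint change among them was that of *rps18*, with 5640, 7684 and 6337 CPM in Δ*atpB*/*E* and 583, 548 and 473 in pRB8c. All Δ*atpB*/*E* libraries were well above all pRB8c libraries (log2 3.62, SE 0.21, adjusted p = 1.52e-06), and RNA of *rps18* was higher by log2 1.66. Its neighbour *rpl33*, a large-subunit gene, had footprints of 1895, 2362 and 2569 CPM in Δ*atpB*/*E* and 285, 273 and 335 in pRB8c, and both readouts were higher (log2 2.93 in footprints and 2.27 in RNA). With values expressed per read mapped to all genomes (RPKM) in place of the scaling within the chloroplast, the footprint medians of the large and small subunit genes were below 0 (log2 −1.61 and −1.69) and that of the polymerase genes was 0.36, while the RNA medians stayed above 0 (1.29, 1.26 and 2.56).

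Genes of other functions that are not part of photosynthetic complexes had more footprints in 5 of 8 genes, where 44.2% of all genes did, while *ccsA*, needed for cytochrome c heme attachment, was lower. Footprints of *accD*, which codes for a subunit of the acetyl-CoA carboxylase of fatty acid synthesis, were at 16072, 15240 and 10515 CPM in Δ*atpB*/*E* and at 1892, 1740 and 1550 in pRB8c. The groups did not overlap (log2 3.01, SE 0.23, adjusted p = 3.69e-06), and RNA of *accD* was higher by log2 1.56. For *ycf2*, a large gene linked to protein import into plastids, footprints were at 12282, 10167 and 6320 CPM in Δ*atpB*/*E* and at 1056, 807 and 553 in pRB8c. The 11.9-fold increase (log2 3.57, SE 0.33, adjusted p = 1.30e-05) was matched by RNA at log2 2.77, the largest RNA increase of any gene. Footprints of *ycf1*, which codes for a component of the inner envelope translocon, were at 9647, 15646 and 16586 CPM in Δ*atpB*/*E* and at 2301, 1414 and 1100 in pRB8c (log2 3.12, SE 0.34, adjusted p = 2.57e-05). The gene of the envelope membrane protein CemA, listed as *ycf10*, was higher by log2 2.38 in footprints and 2.06 in RNA.

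**Figure D3:**
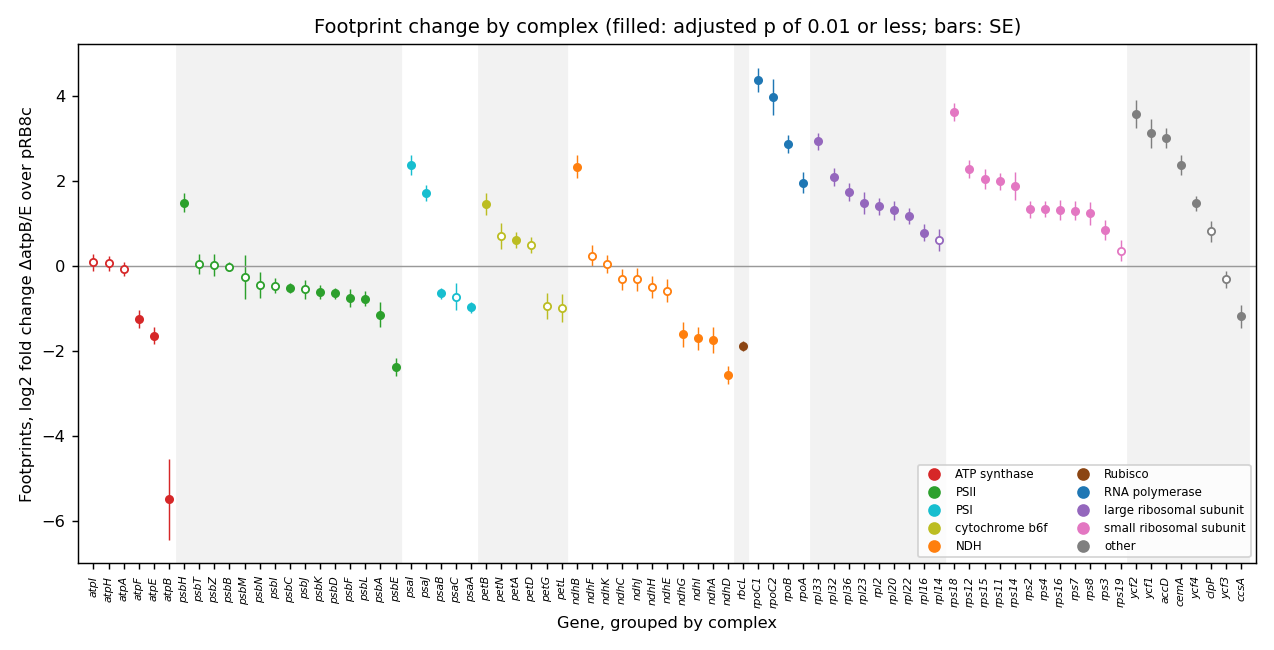
Log2 fold change of footprints (Δ*atpB*/*E* over pRB8c, ± SE) for every gene, grouped by complex or function. Filled points mark an adjusted p of 0.01 or less. Relative to the other chloroplast genes all 4 RNA polymerase genes and 19 of 21 ribosomal protein genes are higher (44.2% over all genes), while 7 of 15 photosystem II genes and 4 of 11 NDH genes are lower (23.4% over all genes).

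Photosynthesis genes moved the other way on balance. Of 44 genes of photosynthetic complexes, Rubisco and NDH, footprints were lower for 17 and higher for 6, with a median log2 change of −0.52, and RNA was lower for 24 and higher for 7, with a median of −0.93. Over all 77 genes, 23.4% were lower and 44.2% higher in footprints (median 0.36). In RNA 33.8% were lower and 41.6% higher (median 0.15). With library sizes alone the footprint medians of the ATP synthase, photosystem II, photosystem I and NDH genes were above 0 (0.13, 0.26, 0.14 and 0.30), where the median over all genes was 1.12. The large subunit of Rubisco, the CO2-fixing enzyme, is encoded by *rbcL* and took 18.6% ± 1.91 of footprints in chloroplast reading frames in Δ*atpB*/*E* and 39.6% ± 3.10 in pRB8c (SD, n = 3 each). Its footprints were at 133652, 157597 and 134602 CPM in Δ*atpB*/*E*, against 563515, 552442 and 448633 in pRB8c. The 3.67-fold decrease (log2 −1.88, SE 0.12, adjusted p = 1.52e-06) went with lower RNA (log2 −1.43, SE 0.27, adjusted p = 6.72e-04), and no change of efficiency was called (log2 −0.45, adjusted p = 0.197). Against RB70 the footprint decrease of *rbcL* remained (log2 −1.35), while its RNA was at log2 0.31 and was not called. The counting windows of *rbcL* and *atpB* start 858 nucleotides apart on opposite strands, and the part of this position in the change was not tested. Against pRB8c, *rbcL* footprints were also lower in the study's mutants Δ3′-*psbD* (log2 −1.36) and Δ*petB*/*D* (−1.52). RNA of *rbcL* was lower in Δ3′-*psbD* (−0.69) and not called in Δ*petB*/*D* (−0.23). Set directly against these mutants, Δ*atpB*/*E* had no called difference of *rbcL* footprints (−0.92 and −1.05). Its *rbcL* RNA was lower than in Δ*petB*/*D* (−1.07).

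In photosystem II, footprints were lower for 7 of 15 genes (23.4% over all genes) and RNA for 13 of 15 (33.8% over all genes). Against pRB8c, RNA was also lower for 11 of the 15 in Δ3′-*psbD* (22 of all 77 genes) and for 6 in Δ*petB*/*D* (16 of all 77 genes). It was higher there for 1 and 2 (31 and 32 of all 77 genes). These counts include genes disrupted in those mutants, and the deleted *psbB*, *psbT*, *psbH* and *psbN* are among the 6 of Δ*petB*/*D*. The strongest footprint decrease was that of *psbE*, which codes for a subunit of the cytochrome in the reaction centre, with 1127, 1327 and 1615 CPM in Δ*atpB*/*E* and 7406, 7378 and 6328 in pRB8c. The groups did not overlap, and the decrease was 5.19-fold (log2 −2.38, SE 0.21, adjusted p = 9.34e-06), with RNA lower by a similar amount (log2 −1.89, SE 0.24, adjusted p = 6.28e-05). Its partner *psbF*, encoded next to it on the same transcript, was less reduced in footprints (log2 −0.75, SE 0.21, adjusted p = 0.00802, up to 0.0308 with 1 library left out) than in RNA (log2 −1.84, SE 0.22). Similarly *psbD* and *psbC*, which code for the reaction centre protein D2 and the inner antenna CP43, were lower by log2 −0.65 and −0.53 in footprints but by log2 −2.11 and −2.03 in RNA. Both footprint calls were lost when Δ*atpB*/*E* replicate 1 or 2 or pRB8c replicate 2 was left out. For *psbA*, the gene of the reaction centre protein D1, footprints were at 62154, 84432 and 140262 CPM in Δ*atpB*/*E* and at 149399, 280886 and 204946 in pRB8c. The libraries of either line were widely spread, and the call (log2 −1.15, SE 0.30, adjusted p = 0.00650) was lost without Δ*atpB*/*E* replicate 1 or 2 or pRB8c replicate 2 or 3, where the adjusted p reached up to 0.0691. RNA of *psbA* was not called (log2 −0.72, SE 0.30, adjusted p = 0.0494) and was higher against RB70 (log2 1.78).

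In photosystem I, *psaA* and *psaB* were lower in footprints and *psaI* and *psaJ* higher. The small subunit gene *psaI* had footprints at 1861, 2012 and 2483 CPM in Δ*atpB*/*E* and 312, 448 and 470 in pRB8c (log2 2.37, SE 0.23, adjusted p = 1.33e-05), and RNA rose less (log2 0.98, SE 0.18). It lies in the unit *psaI*-*ycf4*-*cemA*-*petA*, whose 4 genes were all higher in both readouts. In the cytochrome b6f complex, footprints were higher for 2 of 6 genes, *petA* and *petB* (44.2% over all genes), and none was called lower. Footprints of *petL* and *petG* were at log2 −0.99 and −0.94 and were not called (adjusted p = 0.0213 and 0.0163). RNA was lower for *petB*, *petD* and *petN* and higher for *petA*.

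The NDH complex carries cyclic electron transport around photosystem I, and 4 of its 11 chloroplast genes had fewer footprints (23.4% over all genes) and 1, *ndhB*, more (44.2% over all genes). Footprints of *ndhD* were at 524, 485 and 428 CPM in Δ*atpB*/*E*, against 3351, 2544 and 2630 in pRB8c. This 5.93-fold decrease (log2 −2.57, SE 0.21, adjusted p = 4.70e-06) was the largest of any intact gene. RNA of *ndhD* was at 3339, 3102 and 2717 CPM in Δ*atpB*/*E* and at 4150, 4372 and 4170 in pRB8c, and although the groups did not overlap this was not called (log2 −0.47, SE 0.16, adjusted p = 0.0175). Efficiency of *ndhD* was the lowest of all genes (log2 −2.10, SE 0.25, adjusted p = 5.46e-06).

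Of its neighbours in the same unit, *ndhI* had footprints at 194, 257 and 214 CPM in Δ*atpB*/*E* and at 870, 738 and 564 in pRB8c. For *ndhG* they were at 216, 442 and 422 CPM in Δ*atpB*/*E* and at 1320, 977 and 983 in pRB8c. The groups overlapped in neither gene, and both were lower in footprints (log2 −1.71 for *ndhI* and −1.61 for *ndhG*) and neither was called in RNA. Efficiency was lower for *ndhI* (log2 −1.71, SE 0.35, adjusted p = 6.50e-04) and for *ndhG* (log2 −1.32, SE 0.35, adjusted p = 0.00433), the call of *ndhG* being lost in 3 fits with 1 library left out. Footprints of *ndhA* were lower (log2 −1.74, SE 0.31, adjusted p = 5.68e-04, but 0.0142 without Δ*atpB*/*E* replicate 2), and so was its RNA (log2 −1.11, SE 0.16).

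**Figure D4:**
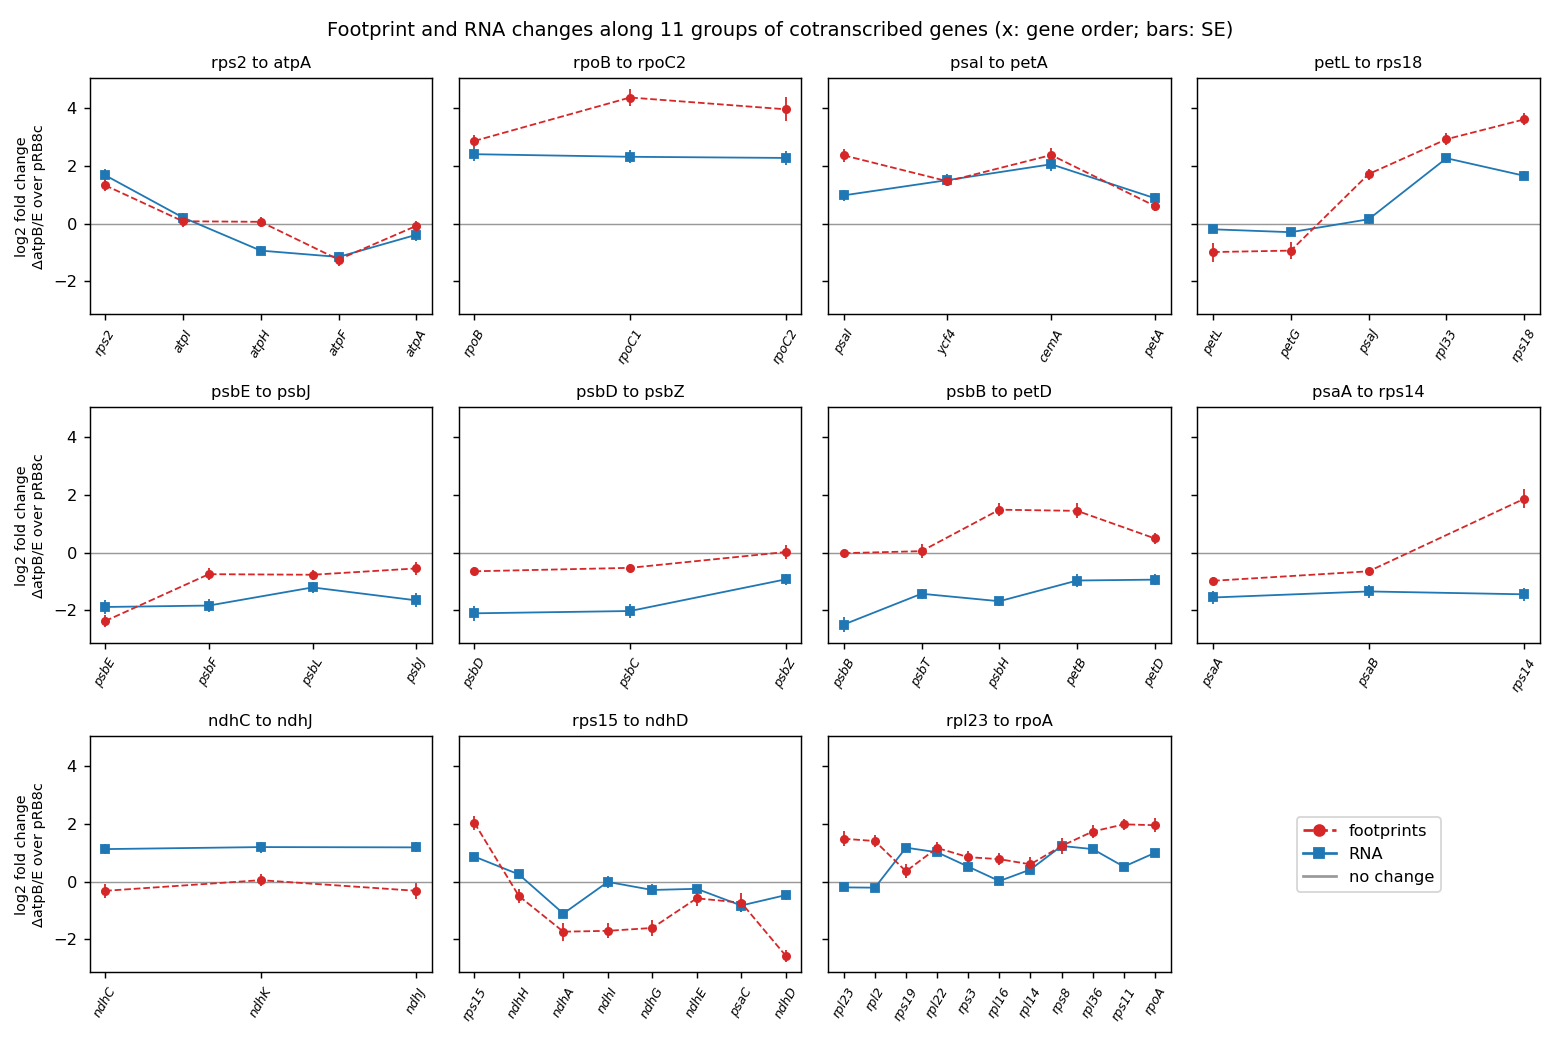
Log2 fold change (Δ*atpB*/*E* over pRB8c, ± SE) of footprints and RNA along 11 groups of cotranscribed genes, in the order of transcription. All 5 members of the *psbB* group are lower in RNA, and *psbH* and *petB* among them are higher in footprints, while all 3 members of the *rpoB* group are higher in both.

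Within some transcription units RNA changed in 1 direction while footprints did not. In the unit *psbB*-*psbT*-*psbH*-*petB*-*petD*, RNA was lower for all 5 genes (median log2 −1.43), footprints were higher for 2, *psbH* and *petB*, and efficiency was higher for all 5 (median 2.43, against 0.46 over all genes). For *psbH*, a small photosystem II subunit, footprints were at 8542, 9232 and 8125 CPM in Δ*atpB*/*E* and at 2286, 3482 and 3428 in pRB8c (log2 1.49, SE 0.22, adjusted p = 1.86e-04). Its RNA was at 1087, 1264 and 1196 CPM in Δ*atpB*/*E* and at 3554, 3876 and 4024 in pRB8c (log2 −1.69, SE 0.15, adjusted p = 1.37e-05). The groups separated in both readouts in opposite directions, so that efficiency was 9.09-fold higher (log2 3.18, SE 0.27, adjusted p = 1.24e-07).

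The first gene of this unit, *psbB*, codes for the inner antenna CP47 and had even footprint levels, at 77338, 74122 and 77437 CPM in Δ*atpB*/*E* and 80353, 77226 and 74316 in pRB8c. Its RNA was at 12178, 18386 and 19089 CPM in Δ*atpB*/*E*, against 86131, 91733 and 102813 in pRB8c. The groups thus overlapped in footprints (log2 −0.02, SE 0.11) and were far apart in RNA (log2 −2.50, SE 0.25, adjusted p = 1.65e-05), with efficiency higher by log2 2.48 (SE 0.27, adjusted p = 3.17e-06). For *petB*, which codes for cytochrome b6, footprints were at 6260, 8961 and 11875 CPM in Δ*atpB*/*E* and at 2851, 3988 and 3060 in pRB8c (log2 1.45, SE 0.26, adjusted p = 6.77e-04, but 0.0120 without Δ*atpB*/*E* replicate 2). RNA of *petB* was at 5908, 8650 and 9623 CPM in Δ*atpB*/*E* and at 14247, 17091 and 16180 in pRB8c (log2 −0.97, SE 0.22, adjusted p = 0.00218, but up to 0.0153 without pRB8c replicate 2 or 3). Efficiency of *petB* was higher by log2 2.43 (SE 0.35, adjusted p = 3.55e-05).

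In *psaA*-*psaB*-*rps14* all 3 genes had less RNA, but footprints were lower for *psaA* and *psaB* and higher for *rps14*, a gene of the small ribosomal subunit. Footprints of *rps14* were at 4553, 6393 and 9068 CPM in Δ*atpB*/*E* and at 1363, 1513 and 2607 in pRB8c (log2 1.87, SE 0.33, adjusted p = 5.67e-04, but 0.0112 without Δ*atpB*/*E* replicate 2). Its RNA was at 2522, 3890 and 4226 CPM in Δ*atpB*/*E* and at 9356, 9274 and 10442 in pRB8c (log2 −1.45, SE 0.22, adjusted p = 1.82e-04). Its efficiency had the largest increase of any gene, 9.97-fold (log2 3.32, SE 0.41, adjusted p = 6.15e-06).

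Over all genes, translation efficiency was higher for 28 (36.4%) and lower for 8 (10.4%). The higher ones included 8 of 15 photosystem II genes (median log2 1.00), 12 of 25 gene expression genes (median 0.76) and *petN*, a small cytochrome b6f subunit. In *petN* footprints were at 1850, 935 and 833 CPM in Δ*atpB*/*E* and at 650, 869 and 691 in pRB8c, with overlap, while RNA was at 138, 137 and 145 in Δ*atpB*/*E* and at 341, 313 and 432 in pRB8c (efficiency log2 2.09, SE 0.36, adjusted p = 1.47e-04). The lower ones were *atpE*, *psbI* and 6 of the 11 NDH genes (median −1.15). Efficiency is relative to the scaling of each assay, and the balance of higher and lower genes moved with it: with library sizes alone 11 genes were higher and 7 lower, the fit over all 10 lines gave 7 and 15, and RPKM per read mapped to all genomes gave 0 and 72. In the fit over all 10 lines efficiency was higher for 1 of 15 photosystem II genes and lower for 8 of 11 NDH genes.

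Among the lower ones were *ndhC*, *ndhK* and *ndhJ*, which lie together downstream of *atpE* on its strand, at 2255, 2608 and 3457 nucleotides. RNA of *ndhC* was at 1074, 881 and 675 CPM in Δ*atpB*/*E* and at 431, 380 and 394 in pRB8c (log2 1.13, SE 0.18, adjusted p = 2.28e-04). RNA of *ndhK* and *ndhJ* was higher by log2 1.20 and 1.19. All Δ*atpB*/*E* libraries were above all pRB8c libraries in these 3 genes. Their footprints overlapped between the lines and were not called (log2 −0.32 for *ndhC*, 0.05 for *ndhK* and −0.32 for *ndhJ*). Efficiency was lower by log2 −1.45 for *ndhC* (adjusted p = 6.50e-04), −1.15 for *ndhK* (adjusted p = 0.00382, up to 0.0118 with 1 library left out) and −1.51 for *ndhJ* (adjusted p = 9.12e-04). RNA of these 3 genes was also higher in the mutant Δ3′-*psbD* against pRB8c, and in Δ*petB*/*D* that of *ndhC* alone was. Set directly against Δ3′-*psbD*, Δ*atpB*/*E* had 0 of 11 NDH genes called in RNA. Few genes were called there at all, with 7.79% of the 77 genes higher and 2.60% lower. Against Δ*petB*/*D*, RNA of *ndhC*, *ndhK* and *ndhJ* was higher in Δ*atpB*/*E*, where 27.3% of all genes were higher. The part of the position next to *atpE* was not tested.

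Δ*atpB*/*E* was then set against the heterotrophically grown mutants Δ3′-*psbD* and Δ*petB*/*D* of the same study, in which genes of photosystem II and of cytochrome b6f (with some of photosystem II) are disrupted. Both comparisons share the Δ*atpB*/*E* libraries with those above, and the counts include the genes disrupted in the other mutants. Against Δ3′-*psbD*, footprints were higher for 11 genes (14.3%) and lower for 7 (9.09%), and against Δ*petB*/*D* higher for 19 (24.7%) and lower for 10 (13.0%). RNA was higher for 6 (7.79%) and lower for 2 (2.60%) against Δ3′-*psbD*, and higher for 21 (27.3%) and lower for 17 (22.1%) against Δ*petB*/*D*. Footprints of *atpB*, *atpE* and *atpF* were lower in Δ*atpB*/*E* in both. For *atpF* the log2 difference was −1.38 (SE 0.30, adjusted p = 0.00702) against Δ3′-*psbD* and −1.55 (SE 0.38, adjusted p = 0.00314) against Δ*petB*/*D*, and leaving out 1 library raised the adjusted p to at most 0.0414 and 0.0162. Footprints of *atpE* differed by log2 −1.57 (SE 0.22, adjusted p = 0.00131) and −2.09 (SE 0.30, adjusted p = 3.26e-05).

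Outside the ATP synthase, *ndhD* had fewer footprints in Δ*atpB*/*E* than in either mutant, by log2 −1.96 (SE 0.27, adjusted p = 0.00131) against Δ3′-*psbD* and −2.36 (SE 0.32, adjusted p = 2.10e-05) against Δ*petB*/*D*. More footprints were found for *ycf1*, by log2 2.34 (SE 0.36, adjusted p = 0.00222) and 2.78 (SE 0.42, adjusted p = 5.72e-05), and for *rpoC1*, by log2 1.91 (SE 0.24, adjusted p = 0.00131) and 1.04 (SE 0.27, adjusted p = 0.00415, up to 0.0437 with 1 library left out). Chloroplast depth and leaf colour also differ between these lines, and their part was not tested. Part of the changes against pRB8c was shared with these mutants. RNA of all 4 polymerase genes was higher in both, and so were footprints of *rpoC1* and *rpoC2*. RNA of ribosomal protein genes was higher for 6 of 9 (large subunit) and 8 of 12 (small) in Δ3′-*psbD*. In Δ*petB*/*D* it was higher for 5 and 7. Footprints of these genes were higher for 3 and 2 in Δ3′-*psbD* and for 3 and 1 in Δ*petB*/*D*. Over all 77 genes, RNA was higher for 31 in Δ3′-*psbD* and for 32 in Δ*petB*/*D*, and footprints for 9 and 10.

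Last, the change in Δ*atpB*/*E* was set against that in as-*ATPC*, in which an antisense RNA lowers the nucleus-encoded γ subunit, relative to its wild type SNN. By the methods these plants grew on soil and in stronger light, and their control is the wild type SNN and not an *aadA* line. The cause of the ATP synthase defect, the plant background and the growth conditions therefore cannot be told apart. In footprints, the change was higher in the Δ*atpB*/*E* contrast for 27 genes (35.1%) and lower for 23 (29.9%), and in RNA it was higher for 19 (24.7%) and lower for 22 (28.6%).

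The footprints of *atpA* changed by log2 −0.08 (SE 0.17) in Δ*atpB*/*E* against pRB8c and by −1.17 (SE 0.04) in as-*ATPC* against SNN. This difference was called in a model over the 12 footprint libraries of the 4 lines (log2 0.80, SE 0.14, adjusted p = 2.18e-04). Those of *atpH* changed by log2 0.06 in Δ*atpB*/*E* and −0.97 (SE 0.05) in as-*ATPC*, with a difference of 0.74 (SE 0.20, adjusted p = 0.00490, up to 0.0154 with 1 library left out). Those of *atpF* were lower in both, by log2 −1.25 in Δ*atpB*/*E* and −0.96 (SE 0.06) in as-*ATPC*, and the difference was not called (log2 −0.56, SE 0.18, adjusted p = 0.0126). Each difference comes from the joint scaling of all 4 lines and so is not the exact difference of the separate changes. In as-*ATPC* against SNN, footprints of *atpB* were also called lower, as was RNA of *atpA*, *atpF* and *atpH*. Over all 77 genes, 17 were lower there in footprints and 19 in RNA. In RNA, *atpB* was the only ATP synthase gene whose change differed between the contrasts (log2 −5.30, SE 0.18, adjusted p = 1.49e-14), and the other five lay between −0.28 and 0.26.

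**Figure D5:**
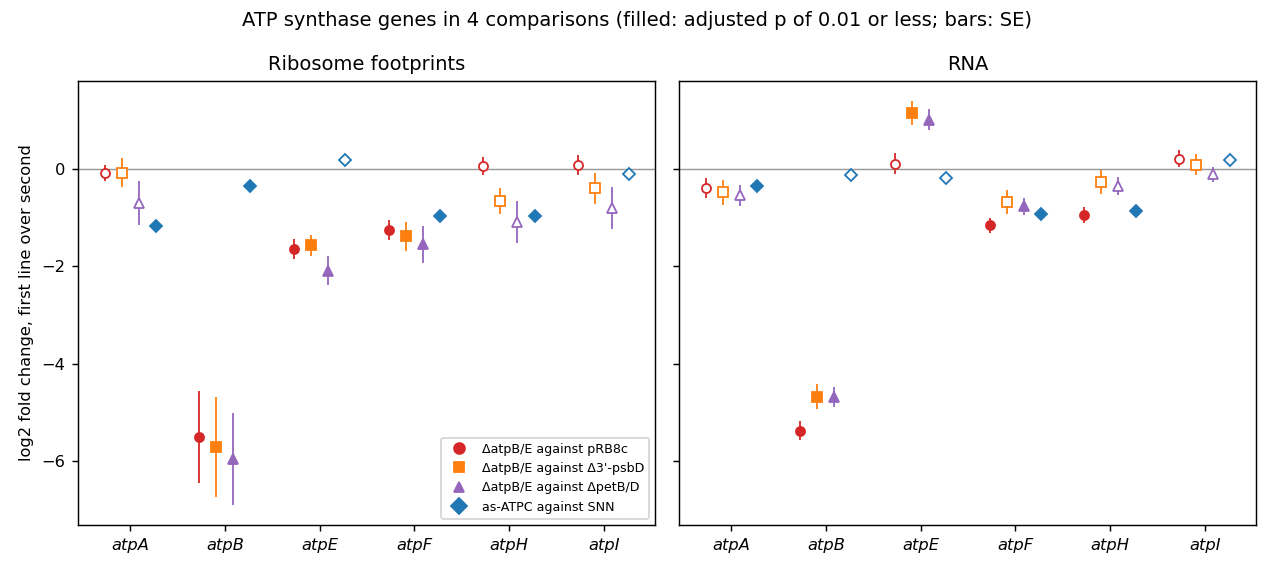
Log2 fold change (± SE) of the 6 ATP synthase genes in footprints and RNA for Δ*atpB*/*E* against pRB8c, Δ3′-*psbD* and Δ*petB*/*D*, and for as-*ATPC* against SNN. Footprints of *atpF* are lower in all 4 comparisons, between −1.55 and −0.96, while *atpA* is lower by more than 1 on the log2 scale only in as-*ATPC*, at −1.17.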

How the data were processed

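The authors removed adapters (cutadapt) and used STAR 2.7.1a to map reads stepwise, first to rRNA and tRNA and then to the chloroplast, mitochondrial and nuclear genomes, per the processing notes and methods. Ribo-seq values are raw counts that the authors made with featureCounts in each chloroplast reading frame, without its ends and, in genes with introns, from the last exon alone. RNA-seq values were deposited as estimated counts, of which 94 in 6 inverted-repeat genes are not whole, and were rounded here. Whether counting used the strand is not given in the sources consulted, so antisense *psbN* is uncertain. The overlapping genes *psbD* and *psbC*, and *atpB* and *atpE*, lie on the same strand within each pair, and their counting windows do not overlap. How reads that span both windows of a pair were counted is not given either, so these genes are also uncertain. The 60 deposited RPKM columns were left aside, and RPKM were computed from the counts.

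Counts were tested with edgeR 4.0.16 in R 4.3.3 (glmQLFTest, TMM scaling within the 6 libraries of an assay, Benjamini-Hochberg adjustment over 77 genes, threshold 0.01). Translation efficiency is the interaction of assay and line in 1 model over 12 libraries, and the contrast with as-*ATPC* is an interaction over the 4 lines within an assay. The minimum was 10 counts in 3 libraries. No pair of replicates agreed within counting noise. Depth per library is given with the results, and p-values measure the spread between the 3 samples. Alternatives were other scalings, DESeq2 1.42.0, limma 3.58.1 on log2(RPKM + 1, 0.1 or 10), a fit over all 10 lines, a replicate block, other thresholds, RB70 as the control and each library left out in turn. The procedures were tested on simulated counts in which a minority of genes changed, as many up as down. That test does not cover changes as widespread as those found here. Named genes were the 6 ATP synthase genes, the genes next to the cassette, the largest changes and genes whose readouts differed most, and the members and lists were chosen with earlier results of these data known.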

Additional observations from a re-analysis of the deposited data

Results flagged for a closer look

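For 4 ATP synthase genes the change of footprints in Δ*atpB*/*E* against pRB8c differed from that in as-*ATPC* against SNN by a test of the interaction (edgeR quasi-likelihood test). The differences were log2 0.80 for *atpA*, −5.43 for *atpB*, −2.12 for *atpE* and 0.74 for *atpH*, with the call of *atpH* lost in 6 fits that left out 1 library. In RNA the change differed for *atpB*, by log2 −5.30. The reading frames of *atpB* and *atpE* are disrupted in Δ*atpB*/*E* but not in as-*ATPC*, and the pairs of lines differ in control line, light and growth medium.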

How the results depend on the processing

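Over 114 gene results, 2127 values under alternatives were computed, of which 1831 kept direction and call, 191 lost the call, 69 gained it and 36 turned direction. Where a scaling moved the median over all genes by more than 0.1, gene values and directions are given relative to that shift. The calls come from the fit before the shift was taken off. A value can therefore count as kept although that fit called the gene in the opposite direction. This applies above all to limma on log2(RPKM + 1), where 1 gene was called higher and 65 lower in footprints.

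Medians and counts depended on the scaling. With library sizes alone the footprint median was 1.12, with 7 genes lower and 30 and 1 at least 4-fold higher and lower, and the RNA median was 1.27, with 8 lower and 27 and 1. Efficiency was then higher for 11. With DESeq2 size factors the footprint median was −0.02 and 9 and 7 genes passed 4-fold, as with the DESeq2 Wald test, where 31 were lower. With limma on RPKM per read mapped to all genomes the footprint median was −2.61, −2.66 and −2.40 for pseudocounts of 1, 0.1 and 10, with 1 higher and 65, 64 and 65 lower (0 and 46 at 4-fold). RNA then had 2 genes at least 4-fold lower, and efficiency was higher for 0 and lower for 72, 72 and 73. In the fit over all 10 lines, 6 genes had 4-fold fewer footprints and 2 less RNA, and efficiency was higher for 7 and lower for 15. Tested against a 2-fold change, 20 and 6 genes differed in footprints, 11 and 10 in RNA, and 7 and 1 in efficiency. With RB70 as the control RNA was lower for 16 genes, 7 of them 4-fold, and efficiency higher for 14.

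Against Δ3′-*psbD*, DESeq2 size factors left 7 genes with more footprints and 0 with more RNA, library sizes alone left 3 and 1 in RNA, and the replicate block gave 12 and 8. Against Δ*petB*/*D*, 21 had fewer footprints with DESeq2 size factors and 5 less RNA with library sizes alone. The contrast with as-*ATPC* gave 47 and 10 genes in footprints and 29 and 9 in RNA with library sizes alone.

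With each library left out in turn, genes lower in footprints numbered 11 (without Δ*atpB*/*E* replicate 2) to 23, those 4-fold lower 3 to 8 (without Δ*atpB*/*E* replicate 3) and those 4-fold lower in RNA 2 (without Δ*atpB*/*E* replicate 1) to 6. Genes of higher efficiency numbered 17 (without Δ*atpB*/*E* footprint replicate 1) to 30 and of lower efficiency 6 to 13 (without Δ*atpB*/*E* footprint replicate 3). Against Δ3′-*psbD* the ranges were 3 to 18 higher and 3 to 14 lower in footprints and 0 to 5 and 1 to 5 in RNA. Against Δ*petB*/*D* they were 11 to 24 and 1 to 19 in footprints and 6 to 18 and 10 to 20 in RNA. The contrast with as-*ATPC* ranged over 11 to 21 and 17 to 36 in RNA.

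Directions turned for small changes with 1 library left out: footprints of *atpH* (−0.37 to 0.09), *atpI* (−0.26 to 0.14), *ndhK* (−0.25 to 0.21) and *psbB* (−0.37 to 0.01), RNA of *atpE* (−0.09 to 0.28), and efficiency of *atpB* (−2.94 to 0.41) and *atpF* (−0.44 to 0.04). Footprints of *psbB* were at 0.00 with library sizes alone, and with limma and a pseudocount of 10 those of *atpH* were at −0.19, *atpI* −0.14 and *ndhC* 0.01. Efficiency of *atpB* was 0.72 in that fit and 0.05 over all 10 lines. With RB70 as the control, footprints turned for *atpI* (−0.24), *psbB* (0.74), *ndhJ* (0.71) and *petN* (−0.10), RNA for *rpoC1* (−1.32), *rbcL* (0.31), *psbA* (1.78), *petN* (0.32) and *ndhD* (0.06), and efficiency for *atpF* (3.29) and *petN* (−0.42). The cause was not tested.

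Samples with the same replicate number correlated at 0.25, −0.01 and 0.41 in footprints and 0.39, 0.05 and 0.29 in RNA after removal of the group means, so they share only a number, and not every sample correlated best with its own. The fit with the replicate block gave 34 higher and 19 lower in footprints, 32 and 27 in RNA and 29 and 8 in efficiency. Depth of footprints in Δ*atpB*/*E* limits genes with few counts, such as *atpB* with 12 to 245.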
